A study of Homo sapiens with 9 samples.

Results

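The 10 genes described here encode the main heat shock proteins of the human cytosol and their nearest helpers. They are the HSP70 genes HSPA1A, HSPA1B and HSPA8, the J-domain co-chaperone genes DNAJB1 and DNAJA1, the nucleotide exchange factor genes HSPH1 and BAG3, the HSP90 genes HSP90AA1 and HSP90AB1, and the small heat shock protein gene HSPB1. They were taken by gene symbol from the 26485 genes of the deposited RNA sequencing tables, and all 10 were found and passed the filter on low values. The cells were MDA-MB-231, a human breast cancer line of the triple-negative kind, and 9 libraries fell into 3 groups: 3 libraries from cells stably expressing a nonspecific (NS) shRNA, 3 from cells with ASAH1 shRNA #1 and 3 from cells with ASAH1 shRNA #2. ASAH1 encodes acid ceramidase, the lysosomal enzyme that splits ceramide into sphingosine and a fatty acid. The cells grew in serum-containing DMEM at one temperature, and the labels name no heat shock or drug for any group. All groups carried an shRNA, and cells without an shRNA were not analysed here. The design text calls the 3 libraries of a group biological replicates but does not say that separate cell lines were derived, so the p-values measure the spread between these libraries. In bulk RNA, fewer cells expressing a gene and less of its RNA per cell cannot be told apart.

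Heat shock proteins are chaperones that bind unfolded stretches of other proteins and help them fold. An HSP70 protein takes its client from a J-domain protein, which triggers ATP hydrolysis and clamps HSP70 on the client, and a nucleotide exchange factor then opens the clamp again. HSP90 receives clients such as kinases and steroid receptors from HSP70 with the help of co-chaperones, while small heat shock proteins hold unfolded proteins without using ATP. Many of these genes are controlled by heat shock factor 1 (HSF1), which binds promoters at heat shock elements, inverted repeats of the unit GAA. HSPA8 and HSP90AB1 are the forms that unstressed cells already make in quantity, and HSPA1A, HSPA1B and HSP90AA1 are known as the heat-inducible forms.

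The promoters of 7 of the 8 genes with a match to the heat shock element are shown, since these genes differed in the direction and size of their change. That of HSPB1, which holds 1 pair, is not shown. The sequences are those of RefSeq on GRCh38.p14, 5′ to 3′ on the strand of the gene, from 250 bases before an annotated start to 30 bases after it, and capitals mark the GAA and TTC units of matched heat shock elements.
HSPA1A, chr6:31815293-31815572, plus strand: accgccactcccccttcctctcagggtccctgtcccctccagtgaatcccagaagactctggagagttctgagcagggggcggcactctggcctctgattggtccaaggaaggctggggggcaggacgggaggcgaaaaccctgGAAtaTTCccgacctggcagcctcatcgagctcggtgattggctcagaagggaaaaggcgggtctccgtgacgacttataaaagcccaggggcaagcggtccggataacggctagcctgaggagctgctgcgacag
HSPA1B, chr6:31827488-31827767, plus strand: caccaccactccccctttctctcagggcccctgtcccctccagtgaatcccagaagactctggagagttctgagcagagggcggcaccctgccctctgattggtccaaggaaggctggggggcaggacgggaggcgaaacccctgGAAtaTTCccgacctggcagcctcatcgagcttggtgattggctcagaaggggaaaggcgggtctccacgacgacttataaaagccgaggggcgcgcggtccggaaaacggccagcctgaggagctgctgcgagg
HSPA8, chr11:123062107-123062386, minus strand: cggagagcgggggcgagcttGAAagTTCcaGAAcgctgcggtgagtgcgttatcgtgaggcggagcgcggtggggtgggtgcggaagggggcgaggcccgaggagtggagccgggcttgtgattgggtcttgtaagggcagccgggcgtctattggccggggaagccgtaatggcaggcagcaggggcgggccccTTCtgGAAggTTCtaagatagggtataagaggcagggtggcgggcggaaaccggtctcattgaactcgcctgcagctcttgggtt
DNAJB1, chr19:14518368-14518647, minus strand: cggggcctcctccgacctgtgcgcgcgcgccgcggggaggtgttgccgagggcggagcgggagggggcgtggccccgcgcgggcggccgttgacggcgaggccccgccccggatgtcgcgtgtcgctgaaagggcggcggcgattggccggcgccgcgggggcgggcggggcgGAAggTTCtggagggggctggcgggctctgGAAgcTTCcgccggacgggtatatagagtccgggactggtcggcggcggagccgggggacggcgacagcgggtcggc
DNAJA1, chr9:33025023-33025302, plus strand: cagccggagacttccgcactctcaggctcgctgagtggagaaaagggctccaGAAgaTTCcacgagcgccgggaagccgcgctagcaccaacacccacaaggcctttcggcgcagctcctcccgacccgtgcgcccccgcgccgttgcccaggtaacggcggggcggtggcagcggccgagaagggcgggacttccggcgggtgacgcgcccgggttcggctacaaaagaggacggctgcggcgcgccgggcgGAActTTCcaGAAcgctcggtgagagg
HSP90AA1, chr14:102087015-102087294, minus strand: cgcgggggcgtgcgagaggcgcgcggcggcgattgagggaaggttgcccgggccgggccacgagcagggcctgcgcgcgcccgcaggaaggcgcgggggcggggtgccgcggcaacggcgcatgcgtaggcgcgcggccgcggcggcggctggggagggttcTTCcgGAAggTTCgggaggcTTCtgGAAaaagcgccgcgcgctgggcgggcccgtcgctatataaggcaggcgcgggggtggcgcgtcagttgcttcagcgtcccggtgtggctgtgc
HSP90AB1, chr6:44247693-44247972, plus strand: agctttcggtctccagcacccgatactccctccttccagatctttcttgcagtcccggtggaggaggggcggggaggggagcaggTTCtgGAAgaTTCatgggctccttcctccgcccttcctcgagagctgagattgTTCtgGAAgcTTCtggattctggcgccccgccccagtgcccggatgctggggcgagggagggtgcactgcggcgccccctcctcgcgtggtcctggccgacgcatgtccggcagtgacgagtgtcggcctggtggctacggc
The search used windows of 300 bases (250 before and 50 after each start) and both strands. A pair of units was GAANNTTC or TTCNNGAA, and a triple was GAANNTTCNNGAA or TTCNNGAANNTTC, so each triple also holds overlapping pairs. A pair was found in 9 of the 15 windows annotated for the 10 genes, in 8 of the genes, against 13.5% of all 35116 promoters of this length. A triple was found in 4 of the 15 windows, those of HSPA8, DNAJA1, HSP90AA1 and HSP90AB1, against 0.490% of all promoters. Of 31 windows of other genes known as HSF1 targets, 14 held a pair and 5 a triple, so the elements are not particular to the 10 genes. HSPA8 and HSP90AB1 each held 2 triples, whereas HSPA1A and HSPA1B each held 1 pair. For DNAJB1, HSP90AA1 and HSP90AB1 the window shown belongs to a later annotated start, and the windows of their earlier starts held no match. DNAJB1 also held 1 pair at a start after the one shown. Which start these cells used was not tested. The windows of HSPH1 and BAG3 held no match to these letters. The promoters of HSPA1A and HSPA1B were identical at 92.6% of aligned bases.

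**Figure D1:**
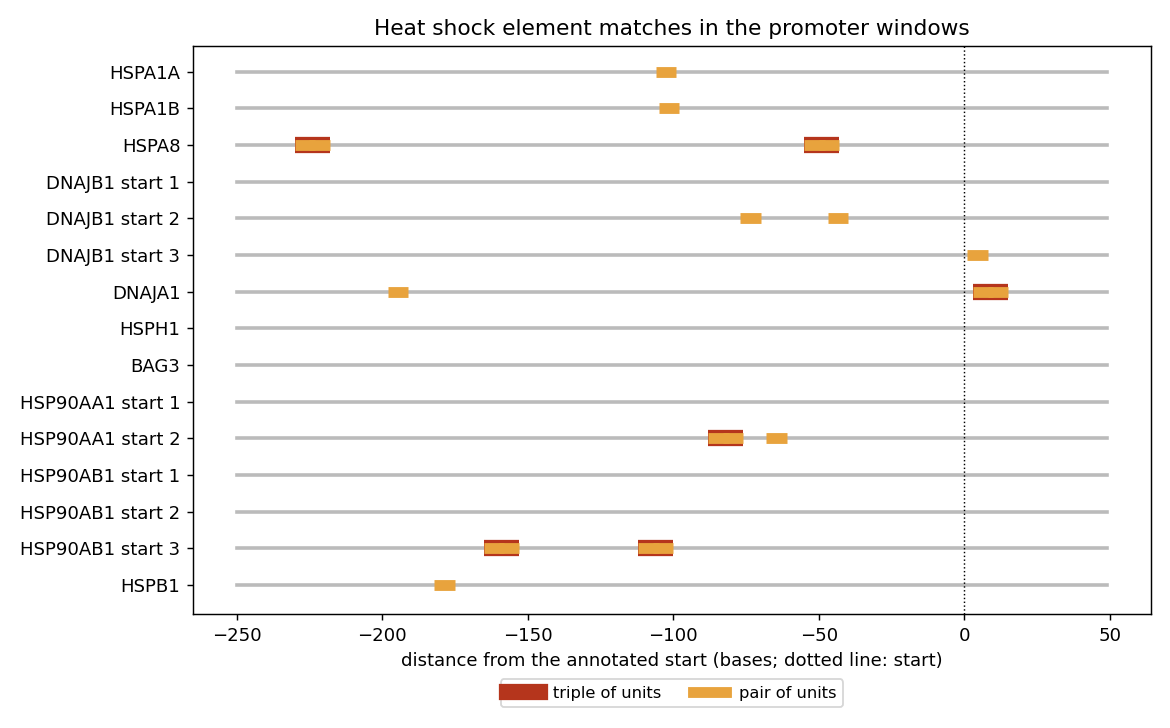
Matches to paired and triple GAA units in the 15 promoter windows of the 10 genes; the x axis gives the distance in bases from each annotated start (dotted line), yellow bars are pairs and red bars are triples. Triples appear in 4 windows, those of HSPA8, DNAJA1, HSP90AA1 and HSP90AB1, and 6 windows hold no match.

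The depth, as reads on genes per library, was 30989598 to 34867548 for NS shRNA, 23806003 to 39791698 for shRNA #1 and 35653318 to 49659106 for shRNA #2. The targeted gene ASAH1 was lower in every knockdown library than in every NS shRNA library, at -1.76 (SE 0.05, adjusted p = 9.49e-09) for shRNA #1 and -2.63 (SE 0.06, adjusted p = 5.42e-10) for shRNA #2 on the log2 scale (limma; SE, the standard error). VIM, CD44, CAV1 and EGFR, which mark this line, had 2667 reads or more in every library. Of the receptors expected low in triple-negative cells, ESR1 and PGR had at most 2 reads, whereas ERBB2 had between 1530 and 3581 and did not meet that expectation. Among markers of other cells, PTPRC, CD3E and VWF had at most 14 reads per library, while CD68 had 827 to 3483 and PECAM1 39 to 102. CD68 was higher with shRNA #1 (log2 fold change 0.29) and lower with shRNA #2 (-1.38), and its part in the results below was not tested.

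The changes of the heat shock protein genes differed between the 2 hairpins. They differed in direction for HSPA8, DNAJB1, DNAJA1, HSPH1 and HSP90AA1, and in size or call for the others. How many of all genes tested were called in opposite directions was not counted, so no share stands beside these 5. With shRNA #1, 8 of the 10 genes fell against NS shRNA, led by HSPA1A, HSPA1B, HSPA8 and DNAJA1, HSP90AB1 rose, and BAG3 did not pass the test. With shRNA #2, 6 rose (HSPA8, DNAJB1, DNAJA1, HSPH1, HSP90AA1 and HSP90AB1), HSPA1B and BAG3 fell, and HSPA1A and HSPB1 did not pass. The median change of the 10 genes, on the log2 scale, lay at -0.51 under shRNA #1 and 0.32 under shRNA #2, beside 0.00 and 0.01 over all genes tested. Calls used limma with Benjamini-Hochberg adjustment over all genes tested, within the deposited table of each hairpin. Changes were widespread: 66.1% of all genes tested passed with shRNA #1, 33.3% lower and 32.8% higher, and 66.9% with shRNA #2, 33.4% lower and 33.5% higher. Both comparisons use the same 3 NS shRNA libraries and are therefore not independent of each other.

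The direct comparison of the hairpins does not use the NS shRNA libraries in its contrast. With the quasi-likelihood test of edgeR, run on reads recovered from the tables, all 10 genes differed between shRNA #2 and shRNA #1, 9 of them higher with shRNA #2 and only BAG3 lower, and the median difference was 0.94 on the log2 scale. In this comparison 63.9% of all genes tested passed, 31.4% higher and 32.5% lower. Values of the 3 libraries of one hairpin did not overlap those of the other for any of the 10 genes, as was so for 67.5% of all genes tested. Against NS shRNA, the libraries of shRNA #1 lay apart for each of the 10 genes and those of shRNA #2 for 8, beside 69.0% and 69.6% of all genes tested. For 8 of the 10 genes no pair of the 3 groups overlapped, against 36.6% of all genes tested.

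**Figure D2:**
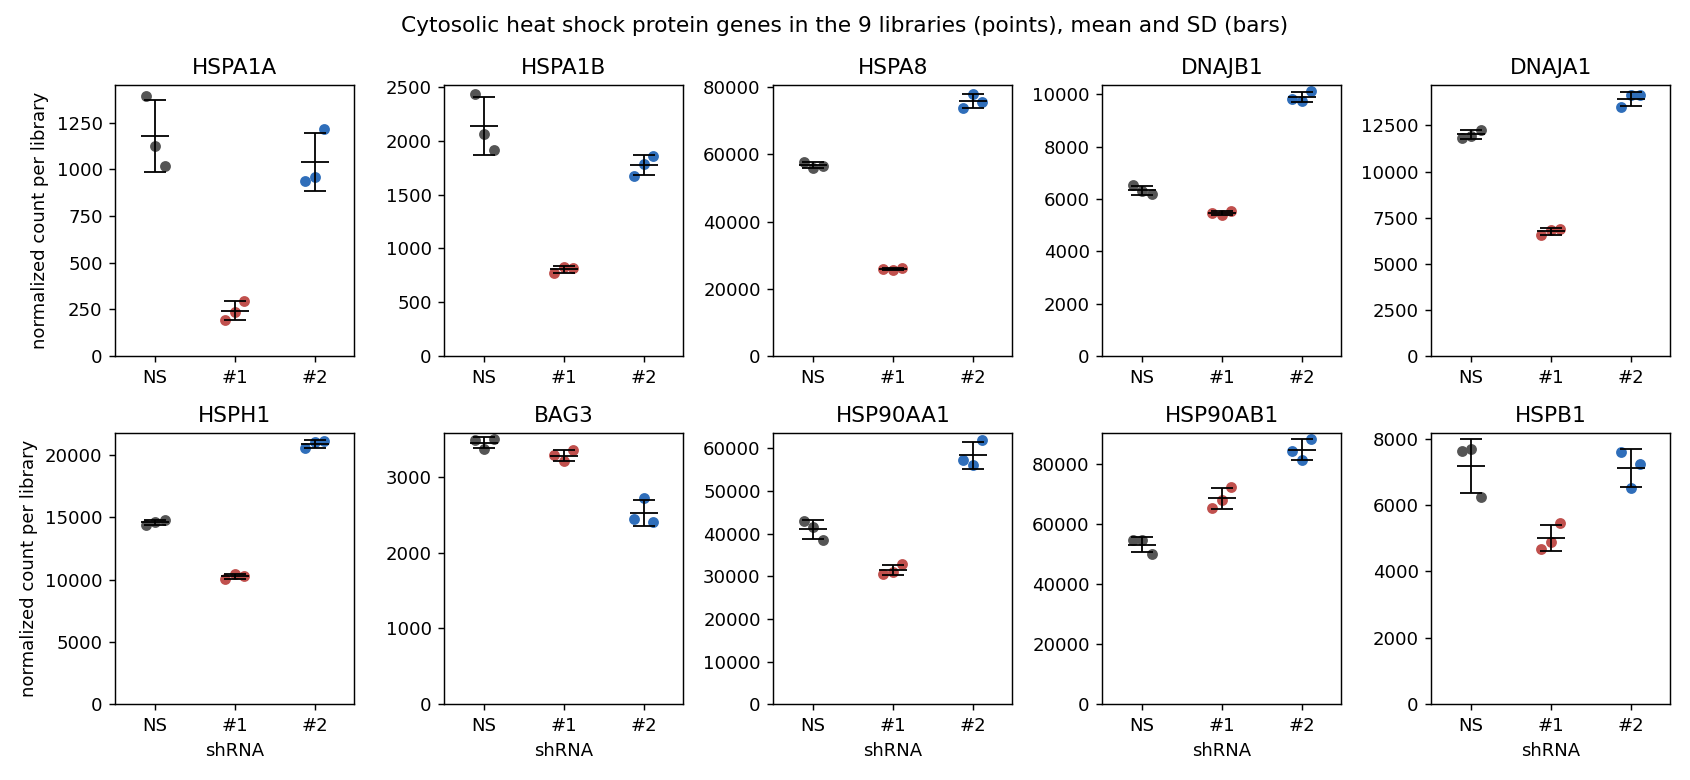
Normalized counts of the 10 genes in each of the 9 libraries on one common scale (y axes from 0, a separate axis for each gene), with the mean and SD of each group of 3 libraries. HSPA8 averages 25879 with shRNA #1 and lies between 73865 and 77973 with shRNA #2, while BAG3 is lowest with shRNA #2.

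Values per library are given below as normalized counts on a common scale, that is, recovered reads divided by size factors computed over all 9 libraries, in the order of replicates 1, 2 and 3, while fold changes and tests come from the fits named above. The stress-inducible HSP70 genes had the lowest counts of the 10 and the largest fall with shRNA #1. HSPA1A had 1392, 1126 and 1016 with NS shRNA, 195, 239 and 296 with shRNA #1 and 938, 961 and 1217 with shRNA #2. All shRNA #1 libraries lay below all others, whereas the shRNA #2 and NS shRNA libraries overlapped. On the log2 scale it changed by -2.28 (SE 0.16, adjusted p = 1.77e-06) under shRNA #1, the largest change of the 10 in size, and stood at -0.18 (SE 0.13, adjusted p = 0.235) under shRNA #2, where it did not pass. The value with shRNA #2 passed without replicate 3 of that group, at -0.30 and an adjusted p of 0.0392 from limma. Between the hairpins HSPA1A was 4.21-fold higher with shRNA #2, a log2 difference of 2.07 (SE 0.16, adjusted p = 8.21e-07) from edgeR.

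HSPA1B, the neighbouring gene that encodes nearly the same protein, had 2434, 2064 and 1912 with NS shRNA, 767, 831 and 820 with shRNA #1 and 1671, 1787 and 1856 with shRNA #2. Here neither knockdown group overlapped with NS shRNA. By limma the log2 fold change stood at -1.40 (SE 0.09, adjusted p = 9.69e-07) for shRNA #1 and -0.26 (SE 0.09, adjusted p = 0.0214) for shRNA #2. The call with shRNA #2 was lost without NS shRNA replicate 1 (-0.17, with an adjusted p of 0.0802 in limma) and without shRNA #2 replicate 1 (-0.22, adjusted p = 0.0900). Between the hairpins HSPA1B was 2.18-fold higher with shRNA #2.

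Both genes have a single exon on the plus strand of chromosome 6 (hg38, GENCODE 44), HSPA1A at 31815543 to 31817946 and HSPA1B at 31827738 to 31830254. Their canonical transcripts were identical at 96.2% of aligned bases, and 73.7% of all 76-base windows of HSPA1A and 73.3% of those of HSPA1B also occurred in the exons of another gene, so their separate counts rest on the remaining windows and are uncertain. Added together, the 2 genes changed by -1.65 (SE 0.10, adjusted p = 6.97e-07 from limma) under shRNA #1 on the log2 scale, and stood at -0.23 (SE 0.10, adjusted p = 0.0554) under shRNA #2, which did not pass. Between the hairpins the sum differed by 1.41 (SE 0.10, adjusted p = 4.54e-07 from edgeR). The sum only adds the separate counts, so it does not bring back reads of the shared windows. The ratio of HSPA1A to HSPA1B reads was 0.550 ± 0.0205 (SD, n = 3) with NS shRNA, 0.301 ± 0.0550 with shRNA #1 and 0.585 ± 0.0622 with shRNA #2, lower in each shRNA #1 library than in each library of the other groups. The methods name a GenBank record of hg38 that also holds alternate loci, and whether these were kept in the alignment index is not given in the sources used here.

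HSPA8 encodes HSC70, the HSP70 that cells make without stress, and it carried the largest absolute difference of the 10. It had 57593, 55869 and 56583 with NS shRNA, 25848, 25708 and 26080 with shRNA #1 and 73865, 77973 and 75476 with shRNA #2. The 3 groups did not overlap, and shRNA #1 lay below NS shRNA and shRNA #2 above it. In log2 terms HSPA8 changed by -1.13 (SE 0.04, adjusted p = 2.66e-08) under shRNA #1 and by 0.42 (SE 0.05, adjusted p = 2.05e-05) under shRNA #2 in limma, and the hairpins differed by 1.54 (SE 0.04, adjusted p = 6.89e-11) by edgeR. HSPA8 had the smallest relative spread within a group, with an SD of 0.727% of the mean with shRNA #1, and HSPA1A the greatest, with 20.9% in the same group. Of the 76-base windows of HSPA8, 1.69% occurred in another gene.

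The J-domain genes followed HSPA8 in direction but not in size. DNAJB1, which encodes the HSP40 protein that partners inducible HSP70, had 6529, 6301 and 6195 with NS shRNA, 5465, 5377 and 5552 with shRNA #1 and 9826, 9738 and 10121 with shRNA #2. DNAJA1, the other abundant HSP40 of the cytosol, had 11835, 11933 and 12260, 6544, 6843 and 6903 and 13509, 14169 and 14119 in the same order of groups. In neither gene did any pair of groups overlap. DNAJB1 changed by -0.21 (SE 0.04, adjusted p = 0.00188) with shRNA #1 and 0.64 (SE 0.05, adjusted p = 1.48e-06) with shRNA #2, and DNAJA1 by -0.83 (SE 0.04, adjusted p = 3.34e-07) and 0.21 (SE 0.05, adjusted p = 0.00237), on the log2 scale from limma. Thus the fall with shRNA #1 was the larger change for DNAJA1, and the rise with shRNA #2 the larger one for DNAJB1. The ratio of DNAJA1 to DNAJB1 reads was 1.90 ± 0.0831 (SD, n = 3) with NS shRNA, 1.24 ± 0.0379 with shRNA #1 and 1.41 ± 0.0417 with shRNA #2.

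The exchange factors went separate ways. HSPH1, the HSP110 protein that reopens HSP70 and keeps unfolded proteins soluble, had 14401, 14630 and 14780 with NS shRNA, 10069, 10471 and 10310 with shRNA #1 and 20549, 21073 and 21088 with shRNA #2. Its changes had nearly the same size in opposite directions, -0.51 (SE 0.04, adjusted p = 4.40e-06) with shRNA #1 and 0.52 (SE 0.05, adjusted p = 3.75e-06) with shRNA #2, from limma. BAG3, which links HSP70 to autophagy of misfolded proteins, had 3482, 3372 and 3502, 3286, 3207 and 3349 and 2448, 2725 and 2402 in the same order of groups. All shRNA #1 libraries of BAG3 lay below all NS shRNA libraries, yet the log2 fold change of -0.07 (SE 0.05, adjusted p = 0.184) from limma did not pass. With shRNA #2 it fell by 0.45 on the log2 scale (SE 0.06, adjusted p = 8.77e-05 from limma), and between the hairpins BAG3 was the one gene that was lower with shRNA #2, at -0.39 (SE 0.06, adjusted p = 8.86e-05) from edgeR.

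The HSP90 genes moved in opposite directions with shRNA #1 and in the same direction with shRNA #2. HSP90AA1 had 42878, 41634 and 38631 with NS shRNA, 30671, 30985 and 32935 with shRNA #1 and 57189, 56036 and 62052 with shRNA #2. HSP90AB1 had 54850, 54751 and 50236, 65339, 68258 and 72294 and 84472, 81552 and 88562 in the same order. The groups of each gene did not overlap: shRNA #1 lay below NS shRNA for HSP90AA1 and above it for HSP90AB1, and shRNA #2 lay above both other groups for either gene. HSP90AA1 changed by -0.38 (SE 0.05, adjusted p = 0.000158) with shRNA #1 and 0.51 (SE 0.06, adjusted p = 2.85e-05) with shRNA #2, and HSP90AB1 by 0.37 (SE 0.05, adjusted p = 0.000265) and 0.67 (SE 0.06, adjusted p = 2.63e-06), on the log2 scale from limma. The ratio of HSP90AA1 to HSP90AB1 reads was 0.770 ± 0.0107 (SD, n = 3) with NS shRNA, 0.460 ± 0.00850 with shRNA #1 and 0.688 ± 0.0119 with shRNA #2. Of the 76-base windows of the canonical transcripts, 6.41% for HSP90AA1 and 5.28% for HSP90AB1 occurred in another gene, all of them HSP90 pseudogenes.

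HSPB1 encodes HSP27, the small heat shock protein that binds unfolded proteins and actin filaments. It had 7635, 7682 and 6253 with NS shRNA, 4691, 4888 and 5460 with shRNA #1 and 7594, 6500 and 7251 with shRNA #2. The shRNA #1 libraries lay below all others, and the shRNA #2 libraries fell among those with NS shRNA, of which replicate 3 was the lowest. HSPB1 fell by 0.52 on the log2 scale with shRNA #1 (SE 0.09, adjusted p = 0.00057 from limma). With shRNA #2 the value was -0.01 (SE 0.09, adjusted p = 0.919), and leaving out single libraries moved it between -0.11 and 0.054 without passing.

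**Figure D3:**
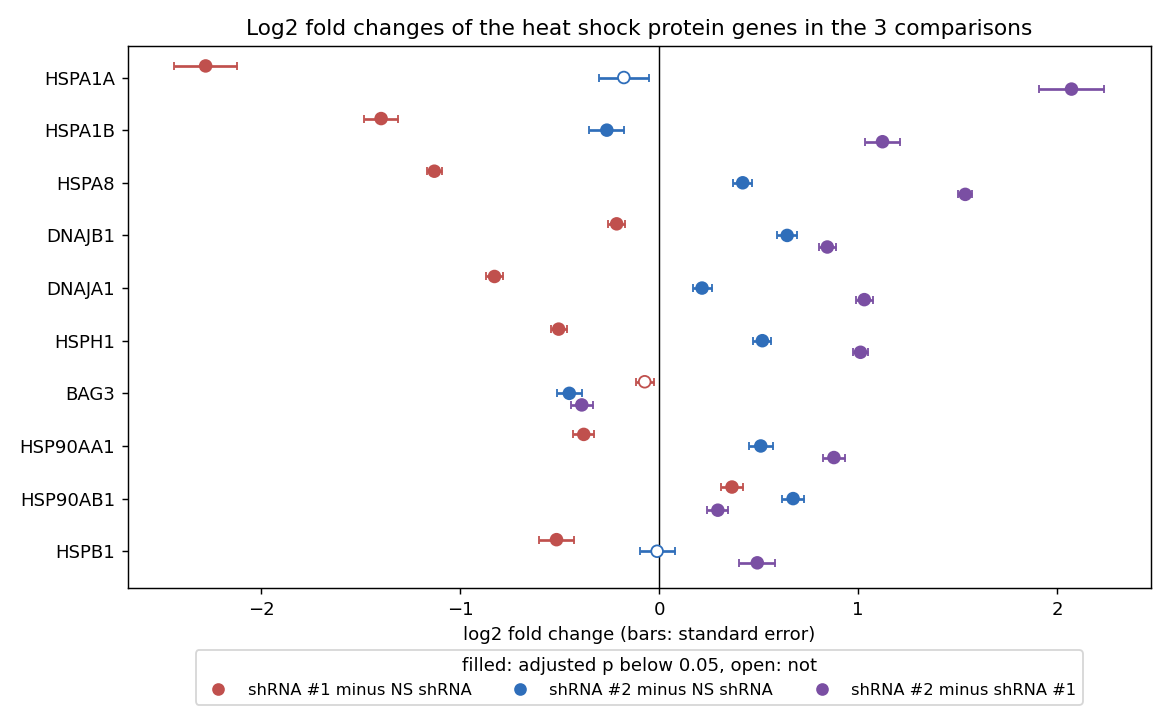
Log2 fold changes (x axis) of the 10 genes (y axis) for shRNA #1 against NS shRNA (red), shRNA #2 against NS shRNA (blue) and shRNA #2 against shRNA #1 (purple), with standard errors; filled points have an adjusted p below 0.05. The red points reach from -2.28 to 0.37 and the blue points from -0.45 to 0.67, and all purple points but that of BAG3 lie above 0.

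As a sum, the 10 genes took 0.586% ± 0.0156 (SD, n = 3) of all reads on genes with NS shRNA, 0.473% ± 0.0166 with shRNA #1 and 0.745% ± 0.0154 with shRNA #2. The 3 groups did not overlap. HSPA8, HSP90AA1 and HSP90AB1 held most of these reads, so the sum mainly describes them, and no test was made of it.

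Levels can be compared between genes only per transcript length. In RPKM (reads per kilobase, scaled to library size) over the canonical transcript, with the reads on genes as the library size, HSPA8 was highest with NS shRNA at 741 ± 10.9 (SD, n = 3), followed by HSP90AB1 at 617 ± 28.5, HSP90AA1 at 376 ± 18.7, HSPB1 at 274 ± 30.0 and DNAJA1 at 153 ± 3.38. DNAJB1 at 83.7 ± 2.01 and HSPH1 at 82.4 ± 1.34 did not differ beyond their spread. BAG3 followed at 39.9 ± 0.881, then HSPA1B at 25.1 ± 3.08 and HSPA1A at 14.5 ± 2.34. With shRNA #1 the first places changed: HSP90AB1 stood at 805 ± 40.3 and HSPA8 at 342 ± 2.58. With shRNA #2 HSPA8 at 903 ± 28.3 and HSP90AB1 at 896 ± 32.4 overlapped. Per kilobase of windows found in no other gene, the order of the low places changed: with NS shRNA, HSPA1B stood at 97.0 ± 11.9 above DNAJB1 at 86.6 ± 2.08 and HSPH1 at 83.6 ± 1.36, though not beyond its spread, and HSPA1A at 57.0 ± 9.18 above BAG3 at 41.1 ± 0.907. The places of HSPA1A and HSPA1B thus depend on how their shared sequence is counted. Other places depend on the length used. Over all annotated exons HSPA8 spans 4849 bases against a canonical 2264, and HSP90AB1 2980 against 2555. For HSPH1 these lengths are 8391 and 5244, and for DNAJB1 8188 and 2242. The lead of HSPA8 and the nearness of DNAJB1 and HSPH1 thus hold for the canonical transcripts, and levels over all exons were not computed.

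**Figure D4:**
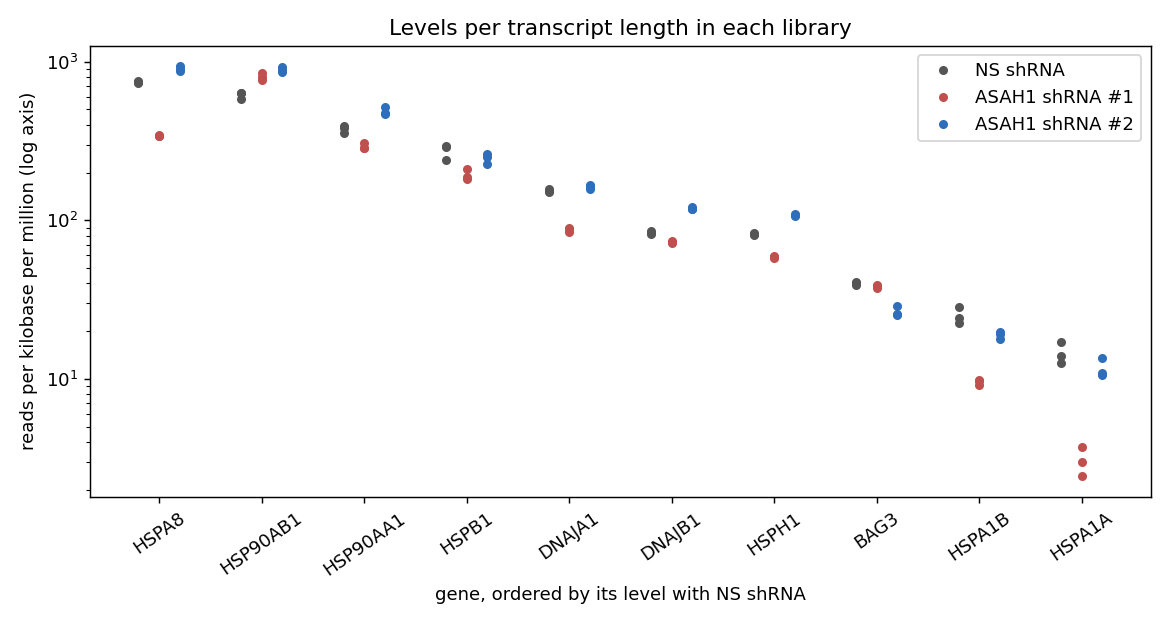
Level in RPKM over the canonical transcript, with reads on genes as the library size (y axis, log scale), for the 10 genes (x axis) in each of the 9 libraries, ordered by the level with NS shRNA. HSPA8 leads with NS shRNA at a mean of 741 and stands below HSP90AB1 with shRNA #1, 342 against 805.

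The genes of the factors that bind heat shock elements were measured in the same libraries. HSF1, the main activator, had 4886, 4750 and 4668 normalized counts on the common scale with NS shRNA, 5250, 5194 and 5285 with shRNA #1 and 5770, 5346 and 5835 with shRNA #2. It changed by 0.14 (SE 0.04, adjusted p = 0.0181) under shRNA #1 and by 0.24 (SE 0.06, adjusted p = 0.00268) under shRNA #2 in limma, and the difference between the hairpins was 0.10 (SE 0.05, adjusted p = 0.099) from edgeR, which did not pass. The call with shRNA #1 was lost when NS shRNA replicate 2 (adjusted p = 0.0567 from limma) or any single shRNA #1 library (0.0521 to 0.0581) was left out, and the difference between the hairpins passed without shRNA #2 replicate 2 (0.14, adjusted p = 0.0309 from edgeR). HSF2, which can form mixed trimers with HSF1, rose by 0.55 with shRNA #1 and 0.62 with shRNA #2, and HSF4 changed by -0.57 and -0.68 on the log2 scale, all with an adjusted p below the threshold. Of the 5 genes in this list, which also holds HSBP1 and HSBP1L1, 3 were higher and 1 lower with either hairpin. With shRNA #1 the number higher was 1 without NS shRNA replicate 2, shRNA #1 replicate 2 or shRNA #1 replicate 3. Between the hairpins the number of the 5 that differed was 0 by edgeR, 1 at an unadjusted p under 0.05 and 1 by DESeq2, and it was 2 without shRNA #2 replicate 2 and 1 without NS shRNA replicate 3 or shRNA #1 replicate 3. It was also 1 with no filter, with limma on all 9 libraries, with the 6 knockdown libraries only and with upper quartile normalization.

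The other genes known as HSF1 targets split under shRNA #1 and mostly rose under shRNA #2. Of 22 listed genes 20 were tested: 8 were higher and 8 lower with shRNA #1, 14 higher and 1 lower with shRNA #2, and 15 higher and 2 lower with shRNA #2 than with shRNA #1. Over all genes tested, 32.8% were higher and 33.3% lower with shRNA #1, and 33.5% and 33.4% with shRNA #2. Between the hairpins these shares were 31.4% and 32.5%. They also stand beside the counts of the HSF list above. The number lower with shRNA #2 was 4 without shRNA #2 replicate 3, 3 without NS shRNA replicate 3 and 2 without shRNA #2 replicate 2, with no filter or with upper quartile rescaling, and the number lower between the hairpins was 1 without shRNA #1 replicate 2 or shRNA #2 replicate 1. Their median lay at -0.03 under shRNA #1 and at 0.47 under shRNA #2 on the log2 scale. HSPB8, the small heat shock protein that partners BAG3, rose by 2.07 with shRNA #1 and 0.86 with shRNA #2 on the log2 scale. It thus moved against HSPB1 with shRNA #1, and its difference between the hairpins was -1.22 (adjusted p = 6.56e-09 from edgeR). DNAJB4, a J-domain protein, and FKBP4, an HSP90 co-chaperone, rose with both hairpins, by 0.38 and 0.48 with shRNA #1 and by 0.97 and 1.05 with shRNA #2, while DEDD2 had -0.16 and -0.23. The call of DEDD2 with shRNA #1 was lost under each single left-out library but shRNA #1 replicate 2 (adjusted p up to 0.142 from limma), with limma without the trend (0.0545) and with DESeq2 (0.0641).

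Some HSF1 targets outside the naming rule were chosen after their values were seen because of their known ties to the 10 genes or the size of their change. IER5, which binds HSF1, had 11600, 11958 and 9788 normalized counts with NS shRNA, 7812, 8626 and 9690 with shRNA #1 and 30168, 23682 and 32102 with shRNA #2, all shRNA #1 values below and all shRNA #2 values above those with NS shRNA. By limma it changed by -0.35 (SE 0.09, adjusted p = 0.00742) under shRNA #1 and by 1.36 (SE 0.11, adjusted p = 2.14e-06) under shRNA #2 on the log2 scale. HSPD1, the mitochondrial HSP60, changed by -0.20 and 0.43, and its partner HSPE1 had -0.94 and -0.21, of which the last did not pass, except when NS shRNA replicate 3 (limma's adjusted p = 0.0117) or shRNA #2 replicate 3 (0.0157) was left out and with upper quartile rescaling (0.0326). DNAJB6 and AHSA1, the activator of the HSP90 ATPase, rose with shRNA #2, by 0.68 and 0.55, and had -0.03 and -0.03 with shRNA #1. HSPA6, a strictly inducible HSP70, had at most 53 reads in any library. It fell with shRNA #1 to a log2 fold change of -1.18 (SE 0.20, adjusted p = 0.000561) and had -0.60 (SE 0.29, adjusted p = 0.0882) with shRNA #2, from limma, where it passed without shRNA #2 replicate 2 (adjusted p = 0.0462) or replicate 3 (0.0450).

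Over all 96 other chaperone, co-chaperone and HSF genes listed, 82 were tested. With shRNA #1, 33 rose and 22 fell, and with shRNA #2, 46 rose and 11 fell, with medians of 0.06 and 0.27 on the log2 scale. Between the hairpins 39 were higher and 15 lower with shRNA #2, with a median of 0.17. With shRNA #1, most of the 10 genes thus fell while more of the other chaperone genes rose than fell. Of all genes tested, 32.8% rose and 33.3% fell with shRNA #1, and 33.5% rose and 33.4% fell with shRNA #2. Between the hairpins 31.4% of all genes tested were higher and 32.5% lower. The counts of the single lists below stand beside the same shares.

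Among the other cytosolic HSP70 proteins, 1 of 7 tested genes rose and 4 fell with shRNA #1, and 2 rose and 0 fell with shRNA #2, by limma. The number lower with shRNA #2 was also 0 at an unadjusted p under 0.05 and by edgeR and DESeq2, but 2 without shRNA #2 replicate 3 and 1 without replicate 2. HSPA4, an HSP110 relative of HSPH1, rose by 0.60 with shRNA #1 and 1.01 with shRNA #2, so it moved against HSPH1 with shRNA #1. Of 17 tested other J-domain proteins 5 rose and 2 fell with shRNA #1, and 8 rose and 3 fell with shRNA #2. The 2 were 1 without NS shRNA replicate 2 or any single shRNA #1 library and with limma without the trend, and the 3 were 1 without shRNA #2 replicate 1. DNAJC6 (auxilin), which uncoats clathrin vesicles with HSPA8, rose by 0.68 and 0.85, and the splicing-associated DNAJC8 by 0.53 and 0.70.

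Of the 10 other HSP70 exchange factors and helpers 4 rose and 3 fell with shRNA #1, and 6 rose and 3 fell with shRNA #2. The BAG family, to which BAG3 belongs, was divided: BAG2 changed by 0.60 and 0.48, BAG4 by 0.29 and 0.77, and BAG1 by -0.94 and -0.36. Outside the naming rule, BAG6 averaged 14838 normalized counts on the common scale with NS shRNA, 17500 with shRNA #1 and 12241 with shRNA #2. BAG5 averaged 1586, 1603 and 2283 in the same order. HSPBP1, an exchange factor that also inhibits HSP70, fell with both hairpins, to -0.32 and -0.33. Of 15 tested HSP90 co-chaperones 7 rose and 3 fell with shRNA #1, and 8 rose and 1 fell with shRNA #2, the 1 being 2 without NS shRNA replicate 2, NS shRNA replicate 3 or shRNA #2 replicate 3 and with upper quartile rescaling. TOMM34 rose by 1.11 and 0.58 and CHORDC1, an HSP90-binding protein, by 0.18 and 0.98, while UNC45A, the myosin chaperone, fell to -0.68 and -0.61. The call of CHORDC1 with shRNA #1 was lost when NS shRNA replicate 1 (limma's adjusted p = 0.0540) or shRNA #1 replicate 1 (0.0530) was left out.

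Of 9 other small heat shock proteins 2 were tested. With shRNA #1, 1 of them rose, and with shRNA #2 both rose. The number lower with shRNA #1 was 0 by limma, at an unadjusted p under 0.05 and by edgeR and DESeq2, and 1 without NS shRNA replicate 3 or shRNA #1 replicate 3. Of the 14 subunits of the cytosolic chaperonin TRiC and its helper prefoldin 7 rose and 3 fell with shRNA #1, and 11 rose and 2 fell with shRNA #2. The prefoldin subunits PFDN2 (1.38 and 1.59) and PFDN5 (-0.43 and -0.45) moved in opposite directions, and the chaperonin subunits CCT7 and CCT8 rose by 0.40 and 0.51 with shRNA #1 and by 0.53 and 0.70 with shRNA #2. Of the 8 mitochondrial chaperone genes 4 rose and 2 fell with shRNA #1, and 5 rose with shRNA #2. The number lower with shRNA #2 was 0 by limma, edgeR and DESeq2, and 1 at an unadjusted p under 0.05, with upper quartile rescaling or without NS shRNA replicate 3 or shRNA #2 replicate 3. HSPA9, the mitochondrial HSP70, rose by 0.90 and 1.08, and its helpers GRPEL2 and HSCB by 0.65 and 0.62 with shRNA #1 and 0.60 and 0.60 with shRNA #2. HSPA9 thus rose where HSPA8, its cytosolic relative, fell.

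**Figure D5:**
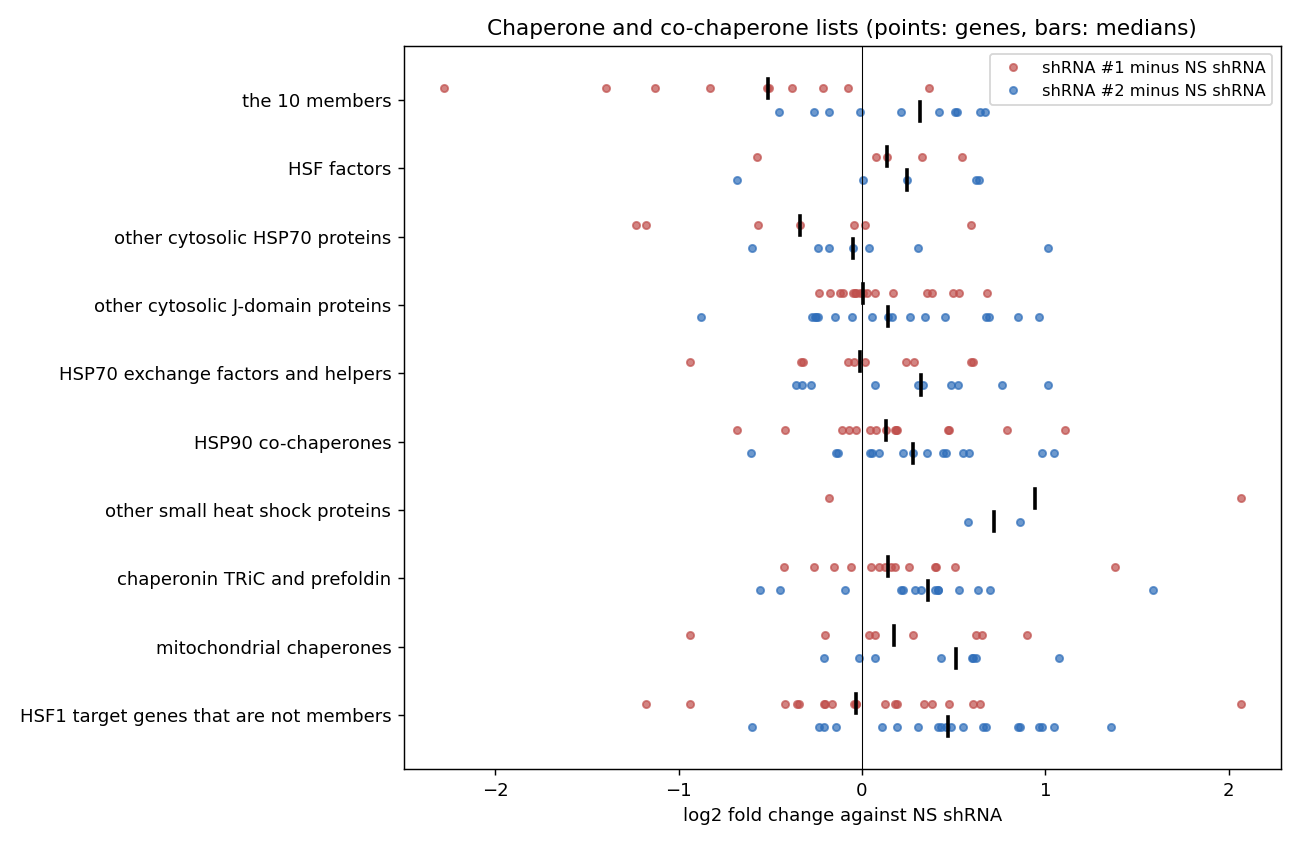
Log2 fold changes against NS shRNA (x axis) of the genes tested in each list (y axis) with shRNA #1 (red) and shRNA #2 (blue), with the median of each list as a black bar; both comparisons share the NS shRNA libraries. The median of the 10 genes lies at -0.51 with shRNA #1 and 0.32 with shRNA #2, and that of the other HSF1 targets at -0.03 and 0.47.

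Some of the 10 genes had nearly the same profile over the 9 libraries. Likeness was the root mean square difference of log2(normalized count + 1) after subtraction of each gene's NS shRNA mean, on the common scale. HSPH1 and HSP90AA1 were the closest pair at 0.0961, then DNAJB1 and HSP90AA1 at 0.128, and HSPA1A and HSP90AB1 were the farthest apart at 1.61. Among the 11600 genes whose mean reached 100, the non-member closest to each of the 10 was RAB17 for HSPA1A (0.173), TRIB2 for HSPA1B (0.102), SHROOM3 for HSPA8 (0.0862), TEAD2 for DNAJB1 (0.0413) and UBE4B for DNAJA1 (0.0575). For the others it was PPP3CA for HSPH1 (0.0528), PSMG2 for BAG3 (0.0398), NT5DC2 for HSP90AA1 (0.0377), DDX47 for HSP90AB1 (0.0311) and CHID1 for HSPB1 (0.0479). These are descriptions of 9 libraries in 3 groups.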

How the data were processed

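RNA of 9 MDA-MB-231 libraries in 3 groups of 3 was analysed. The labels describe oligo-dT selection with strand-specific libraries, and the design text ribosomal RNA depletion. Per the labels and the methods, the authors used Trimmomatic 0.36 for trimming and STAR 2.7.1a for alignment to hg38, assigned reads to UCSC genes in htseq-count and ran DESeq2 1.28 for each hairpin with NS shRNA. Elsewhere the methods list Bowtie2, RSEM, TMM and edgeR instead. Deposited per library and for 26485 genes is a signal: the count of reads over that library's size factor. Left aside were the comparison columns the authors deposited, namely log2 fold changes with their errors, the Wald score, and each p-value before and after adjustment. All values were whole reads after multiplication by 1 factor per library, within 0.01 or, for the largest counts, within a wider margin that grew with the count. Reads were therefore recovered, and the NS shRNA reads differed between the tables in 0 cases. The symbols of 28 genes had become dates in one table and were taken from the other.

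Software was limma 3.58.1, edgeR 4.0.16 and DESeq2 1.42.0 under R 4.3.3; tables and plots came from pandas 2.3.3 and matplotlib 3.10.9 under Python 3.11.15. Within its own table each hairpin was set against NS shRNA in limma (trend on mean level, log2(value + 1), genes averaging 10 or more, two-sided) with Benjamini-Hochberg adjustment at 0.05. A fold change on this scale understates the change of low genes. For hairpin against hairpin, TMM-scaled reads of all 9 libraries went into the edgeR quasi-likelihood test. That test gives no SE, so the SE printed with edgeR values is the size of the log2 difference over the square root of its F statistic. Run on recovered reads as an alternative to limma, edgeR called 4696 genes higher and 4780 lower with shRNA #1, and 4783 and 4771 with shRNA #2. The scripts were tested on simulated data in which few genes changed, evenly up and down, and the spread was fixed. Most genes passed in the real data, so the simulation does not show how the fits behave there. Chi-square per gene between replicates ran from 5.26 to 23.2, so no library copied another. Precision rests on 3 libraries per group and on the reads on genes given above.

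The members and lists were chosen with earlier results of these data known. The genes named are the 10 members, ASAH1, HSF1, HSF2 and HSF4, up to 3 genes in each direction per list with the largest mean change called alike in both comparisons, and the closest gene to each member. Gene positions and transcripts come from GENCODE 44. The planned comparison of protein sequences was not run, and transcripts were compared instead. Alternatives were other pseudocounts, filters, scalings and tools, a joint fit over all libraries, a block for replicate number, HSPA1A and HSPA1B added together, and each library left out in turn.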

Additional observations from a re-analysis of the deposited data

Results flagged for a closer look

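The effects of the 2 hairpins differed for 27 of the 42 named genes, with an adjusted p below 0.05 in the quasi-likelihood test of edgeR, run on recovered reads, a share close to the 63.9% of all genes tested. Some of the 42 were named after their values were seen, and others because they were called alike with both hairpins. That choice shapes this share. Values are log2 differences, shRNA #2 minus shRNA #1. All 10 heat shock protein genes were among them. The differences were 2.07 for HSPA1A, 1.12 for HSPA1B, 1.54 for HSPA8, 0.84 for DNAJB1, 1.03 for DNAJA1 and 1.01 for HSPH1. They were 0.88 for HSP90AA1, 0.29 for HSP90AB1 and 0.49 for HSPB1, and -0.39 for BAG3. The targeted gene ASAH1 was itself lower with shRNA #2, at -0.89, so depth of knockdown and hairpin cannot be told apart.

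Among the other HSP70 and J-domain genes, HSPA4 differed by 0.40, DNAJB4 by 0.57, DNAJB6 by 0.70 and DNAJC8 by 0.15. The call of DNAJC8 was lost with upper quartile normalization (0.078, adjusted p = 0.154 from edgeR) and without shRNA #1 replicate 2 (adjusted p = 0.0548). Among exchange factors the values were 0.56 for BAG1, -0.13 for BAG2 and 0.47 for BAG4. The call of BAG2 was lost without shRNA #1 replicate 2 (adjusted p = 0.0581 from edgeR), without shRNA #2 replicate 1 (0.0618) and with no filter (0.0930). Among HSP90 co-chaperones they were -0.54 for TOMM34, 0.56 for FKBP4, 0.79 for CHORDC1 and 0.57 for AHSA1. HSPB8, a small heat shock protein, differed by -1.22 and IER5, which binds HSF1, by 1.71. The mitochondrial chaperones HSPA9, HSPD1 and HSPE1 differed by 0.16, 0.62 and 0.72, and the call of HSPA9 was lost with upper quartile normalization (0.089, adjusted p = 0.0573 from edgeR).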

How the results depend on the processing

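Of 18 counts of genes called among the 10 genes, all genes tested and all other listed chaperone genes, 17 stayed within 1.5 times their main value under every alternative run. The exception was the number of the 10 genes lower with shRNA #2, which was 2 and became 1 with limma without the trend, with the replicate block and with HSPA1A and HSPA1B added together, and 1 to 3 with single libraries left out, the 3 without shRNA #2 replicate 3, where HSPA1A also passed. The gene lost was HSPA1B, whose adjusted p from limma was 0.0630 without the trend, 0.0512 with the replicate block and 0.0554 when added to HSPA1A; the cause was not tested. Same-numbered libraries of different groups correlated between -0.60 and 0.44 in their deviations, and 2 of 9 libraries correlated best with their own number, so the numbers were not taken as pairs. With the block, the calls with shRNA #1 of HSF1 (adjusted p = 0.0986 from limma), CHORDC1 (0.0652) and DEDD2 (0.123) were also lost, the J-domain genes lower with shRNA #1 fell from 2 to 0 and the HSF factor genes higher from 3 to 1. Of 54 counts within single lists, 13 moved by more than 1.5 times under at least 1 alternative; those printed are given with their results. Of 126 single-gene results 99 had the same direction and call under all of them. Values near 0 that changed sign with single libraries left out were those of HSPB1 with shRNA #2 (-0.11 to 0.054), of DNAJB6 (-0.067 to 0.0082) and AHSA1 (-0.093 to 0.022) with shRNA #1, and between the hairpins of HSPBP1 (-0.059 to 0.071), PFDN5 (-0.084 to 0.038) and HSCB (-0.12 to 0.018). With upper quartile normalization HSF2 (-0.016) and UNC45A (-0.011) changed sign between the hairpins. None of these passed the test. Depth limits HSPA6, and shared sequence limits HSPA1A and HSPA1B.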
